A study of Mus musculus with 21 samples.

Results

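The comparison set 3 libraries of the empty vector line against 3 libraries of its parental line, 6 of the 21 libraries in the series, across all genes. The libraries were chosen by their titles and not by any measured value. Both lines are E0771 cells that carry GFP. E0771 is an established mouse breast cancer line. The parental group, E0771GFP, has the treatment label "none". The empty vector group is the same GFP-carrying line with the genotype label "empty vector". The other 5 groups, used only to share the estimate of spread and for levels, are a line overexpressing ZBTB18, a zinc finger repressor of transcription, that line with a doxycycline-inducible TGF-β receptor TGFBR2 and doxycycline, given vehicle or TGF-β1, and M11GFP and M12GFP, cells derived from spontaneous lung metastases of E0771GFP. All 7 groups carry GFP. The labels name neither the vector's backbone or promoter, nor the way it was delivered, a selection drug, a passage number, or whether either line was 1 clone or a pool. What the vector, its delivery, selection and time in culture each contributed cannot be told apart here. The labels also do not say that the 3 libraries of a group were separate cultures. The p-values thus measure the spread between libraries within the 7 groups, which may be technical.

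An empty vector line is made by putting the carrier DNA or virus without its insert into cells, growing out the cells that took it up, and comparing later derivatives with it. Such a line can differ from its parent by the carrier itself, by where the carrier landed in the genome, by the drug used to select it, and by which cells of a mixed culture were carried forward. Cells also hold an alarm system for foreign nucleic acid: sensors such as RIG-I, MDA5 and cGAS switch on type I interferons, which act through the receptor chains IFNAR1 and IFNAR2 and the kinases JAK1 and TYK2 to raise a large set of antiviral genes.

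The libraries held 42115823, 44136813 and 34323595 counts in the parental line and 80780775, 36052482 and 37671879 with empty vector. Parental replicate 1 stood apart from the other 20 libraries of the series: Gm42418, a gene entry known to collect ribosomal RNA reads, took 14% of its counts, against 0.0918% in parental replicate 2 and 0.0595% in replicate 3, and its TMM scaling factor was 0.839. Levels are given as CPM, counts scaled to library size with TMM factors. The SD between replicates on the log2 CPM scale had a median over genes of 0.143 for the parental libraries and 0.0793 for the empty vector libraries. Because of the first parental library, the count over all genes and those of some lists are also given without it.

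Most epithelial markers were low in both lines, and some differed between them. Of 10 epithelial markers 4 were tested, 2 of them higher and 1 lower with empty vector. Krt8, a keratin of simple epithelia, had 21572 reads over the parental libraries and 44944 over the empty vector libraries, but Krt18, its usual partner, had 7 and 2, Cdh1 (E-cadherin) 8 and 9, and Krt19 0 and 0. Epcam had 26 and 501 reads (log2 fold change 3.80), and Krt7 was lower (-2.26). Of 14 blood and immune markers 4 were tested, and the list summed to between 6.73 and 10.8 CPM over the 6 libraries, mostly from Cd14, Lyz2 and Hba-a1, with Ptprc, the pan-leukocyte marker, at 0 and 5 reads and Cd3e, Cd8a and Ms4a1 at 0. Hba-a1, a globin, was higher (1.21) and Cd79a lower (-1.52). Endothelial markers summed to at most 0.84 CPM and lung epithelial markers to at most 1.28 CPM, with Cldn5, Nkx2-1 and Scgb1a1 at 0 reads in both lines. Of 5 adipocyte markers only Fabp4 was tested, and it was higher (1.70) with the list at 0.547 to 1.3 against 2.02 to 3.25 CPM. The fibroblast markers were mixed in both lines: Pdgfra, Pdgfrb, Gsn and Col3a1 were expressed, while Thy1 had 0 reads, Dcn 0 and 1 and Col1a2 5 and 9, and the list summed to 513 to 635.4 CPM against 770.5 to 846.8 CPM. The part of other cells in the results was not tested. Mesenchymal genes were abundant, with Vim (vimentin) between 2194 and 3743 CPM in all 6 libraries.

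In the main fit the lines differed at a majority of genes, and the other settings gave from 6682 to 9378 calls. Of 15432 genes tested, 8944 (58%) passed an adjusted p of 0.05 in edgeR's quasi-likelihood test, 4462 (28.9%) higher and 4482 (29%) lower with empty vector, and the 3 libraries of 1 line lay wholly above those of the other at 9433 genes (61.1%). The median log2 fold change over all genes was -0.02, so the calls were balanced on this scale. Without parental replicate 1 there were 7930 calls, 4203 higher and 3727 lower. With the spread estimated from the 6 libraries alone there were 7606. With a fold of at least 2 there were 813 genes higher (5.27%) and 1701 lower (11%), and with a fold of at least 10 there were 87 higher and 136 lower. On the TPM scale the same counts leaned upward: the median of all genes moved to 0.21 with log2(TPM + 1) and 0.29 with log2(TPM + 0.1), and 78.4% and 77.7% of the calls were higher, against 49.9% on the count scale. Directions below are on the count scale. In 6 lists the larger count turned from lower to higher with log2(TPM + 1), where 6795 of all genes were higher and 1868 lower. They were the nuclear respiratory chain, sterol and fatty acid synthesis, and nucleic acid sensing (14 higher, 6 lower). The others were hypoxia and glycolysis (17 and 4), drug efflux (8 and 4) and germline genes (5 and 4). The median minus that of all genes was -0.21, -0.16 and -0.17 there for sterol, drug efflux and germline genes. It was 0.18 for sensing, 0.09 for hypoxia and 0 for the respiratory chain.

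**Figure D1:**
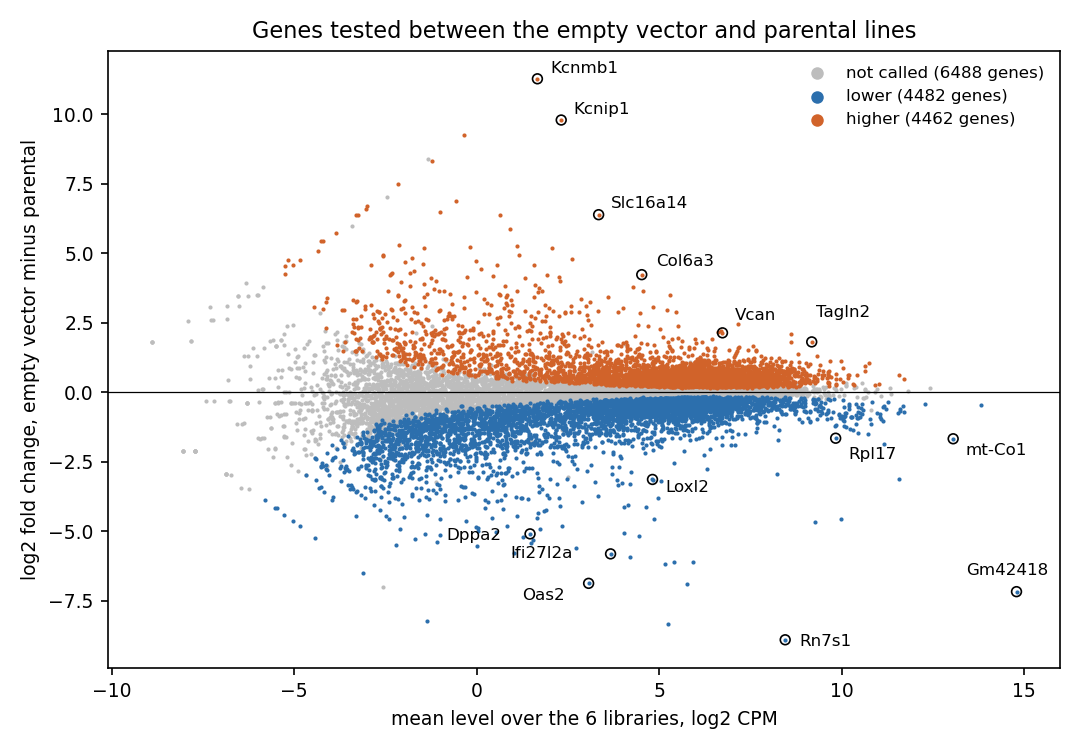
Log2 fold change of the empty vector line against the parental line (vertical axis) by the mean level over the 6 libraries in log2 CPM (horizontal axis); each point is 1 of the tested genes, colored by its call at an adjusted p of 0.05, and the 17 tested genes with no read in these 6 libraries are not drawn. Kcnmb1 and Kcnip1 stand at the top with fold changes of 11.27 and 9.79, Rn7s1 and Oas2 at the bottom with -8.91 and -6.88, and low-level genes lean downward.

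The largest fold changes upward lay at 1 locus on chromosome 11. Kcnmb1, the accessory beta 1 subunit of the large-conductance calcium-activated potassium channel, was at 0, 0 and 0 CPM in the parental libraries and at 7.46, 4.92 and 6.63 CPM with empty vector. Its 1026 reads against 0 make it at least 254-fold higher, measured against a floor of 3 counts over the parental group. Kcnip1, a calcium-binding partner of Kv4 potassium channels, was at 0, 0.0228 and 0 CPM in the parental libraries and at 11.3, 10.1 and 8.46 CPM with empty vector. With 1591 reads against 1 the ratio was 1181 (95% interval 211.6 to 46660). These bounds cover counting error only.

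The pair are neighbours in a strict sense. On GRCm38 (mm10) with GENCODE vM21, Kcnip1 (ENSMUSG00000053519.16) spans chr11:33629339-33993152 on the minus strand, and Kcnmb1 (ENSMUSG00000020155.2) lies within it on the plus strand at chr11:33963013-33973641. It sits in the intron between the Kcnip1 exons that end at 33843585 and start at 33992749, and 0 of its exons overlap an exon of Kcnip1. Lcp2, an adaptor protein of T cells and platelets that starts 53.8 kb beyond Kcnip1, also rose, from 0.283, 0.0228 and 0.17 CPM to 1.07, 0.601 and 1.08 CPM (log2 fold change 2.59 ± 0.53, SE; edgeR adjusted p = 0.00032).

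Few of the genes farther out had reads. Of the 22 genes within 500 kb of Kcnip1, 11 had 0 reads in all 6 libraries. Npm1, the abundant nucleolar protein nucleophosmin, stood at 2321, 2197 and 2272 CPM against 2139, 2014 and 1946 CPM and was not called (edgeR adjusted p = 0.158). Ranbp17 had 1 and 5 reads in the groups, Dock2 5 and 14, and Gabrp 0 and 0. The pseudogene Anp32-ps was called higher at a fold change of 0.97.

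The same pair was at or near 0 elsewhere in the series, with 1 exception. Kcnip1 had at most 1 read in any M11, M12 or receptor library and 6, 2 and 5 reads with ZBTB18 overexpression. Kcnmb1 had at most 6 reads in any M11, M12 or receptor library and 62, 103 and 116 reads with ZBTB18 overexpression (1.2, 2.14 and 2.12 CPM). The receptor groups are the 2 that carry inducible TGFBR2. Where the vector integrated was not measured.

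The other 13 of the 15 largest rises, chosen to have at least 5 CPM and no overlap between the lines, held transporters, guidance cues and kinases. Slc16a14, a transporter of the monocarboxylate family, rose from 0.227, 0.114 and 0.398 CPM to 22.3, 14.9 and 22.8 CPM (6.38 ± 0.34, SE; edgeR adjusted p = 2.4e-11). Sema5a, a membrane-bound axon guidance cue, rose from 0.17, 0.114 and 0.398 to 8.42, 5.74 and 10.4 CPM. Dclk1, a microtubule-binding kinase used as a tuft cell and tumour stem cell marker, rose from 0.283, 0.182 and 0.256 to 6.01, 5.22 and 5.73 CPM.

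Proteases and detoxification enzymes were also among them. Adamts7 and Adamts8, secreted metalloproteases, rose by 3.62 and 3.76 on the log2 scale, and Ugt1a6a and Ugt1a7c, which attach glucuronic acid to drugs and hormones, by 4.15 and 4.22. The Ugt1a genes share their last exons, so the split of reads between them depends on RSEM. Wdfy4, a BEACH-domain protein known from dendritic cell antigen presentation, rose by 4.79, Arhgef3, a RhoA exchange factor, by 4, and Slc6a4, the serotonin transporter, by 3.64.

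Levels in the other lines differed from gene to gene. Slc16a14, at 20 CPM on average with empty vector, averaged 0.0392 CPM with ZBTB18 overexpression and 23.4 CPM in M11, whereas Wdfy4, at 11.7 CPM with empty vector, averaged between 12.6 and 26 CPM in the other 5 groups and 0.434 CPM in the parental line. The parental line was thus the low one for Wdfy4 among all 7 groups.

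**Figure D2:**
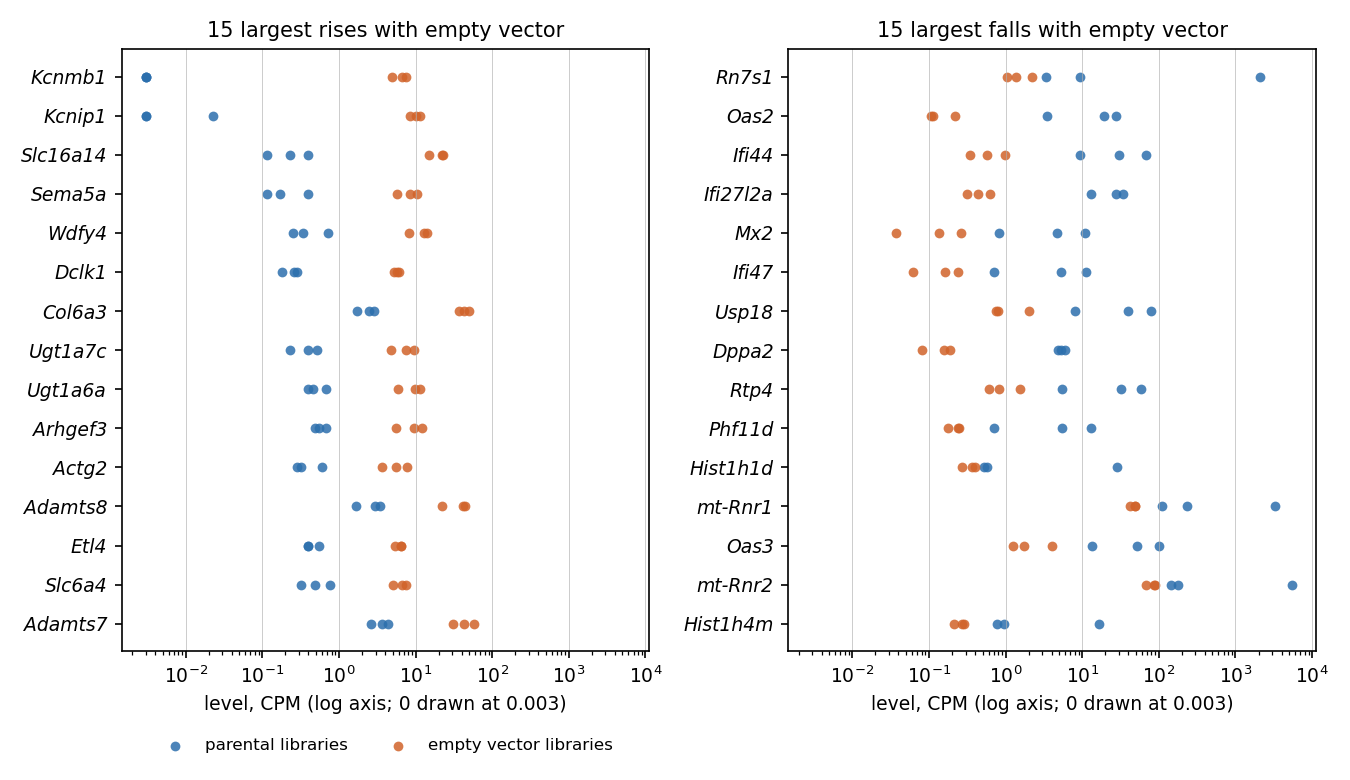
Levels of the 15 largest rises (left) and 15 largest falls (right) among called genes with at least 5 CPM on average in the higher line, in CPM on a log axis with 0 drawn at 0.003; each dot is 1 library. The lines do not overlap at any of these genes, which the choice of genes required. For Oas2, on the right, the parental libraries lie at 27.2, 19.2 and 3.49 CPM and the empty vector libraries at 0.113, 0.219 and 0.106 CPM.

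Interferon-stimulated genes fell as a group. Of 64 listed antiviral and interferon-induced genes, 62 were tested, 58 fell with empty vector and 0 rose, 48 of them by a fold of at least 2, against 29% lower and 11% lower by at least that fold over all genes. The median log2 fold change of the 62 was -2.63, against -0.02 over all genes. The falls were not uniform across the parental libraries: parental replicate 1 was the highest and replicate 3 the lowest of the 3 at 62 of 62 genes, and replicate 3 alone still lay above all empty vector libraries at 51 of 62. Without replicate 1 the counts were 50 lower and 1 higher, with a median of -1.86. Over all genes that fit gave 3727 lower and 4203 higher, with a median of 0.01. The summed level of the list was 3990, 2780 and 1586 CPM in the parental libraries and 1124, 1156 and 1262 CPM with empty vector.

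Oas2, an antiviral synthase of short oligoadenylates (chr5:120730333-120749853, minus strand), led the list. It stood at 27.2, 19.2 and 3.49 CPM in the parental libraries and at 0.113, 0.219 and 0.106 CPM with empty vector (-6.88 ± 0.66, SE; edgeR adjusted p = 2.6e-07), a fall of 118-fold. Ifi44, an interferon-induced antiviral protein, went from 69, 29.8 and 9.32 CPM to 0.339, 0.574 and 0.978 CPM. Usp18, the protease that removes ISG15 and damps the receptor, went from 79.2, 39.1 and 7.98 CPM to 0.753, 0.793 and 2.03 CPM. The groups did not overlap at any of these genes.

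The ubiquitin-like modifier Isg15 was at 102, 60 and 11.7 CPM against 3.19, 4.92 and 4.31 CPM, and Ifit1, which binds foreign RNA caps, at 69.8, 24.8 and 5.62 CPM against 2.77, 3.88 and 3.65 CPM. Both were called, and parental replicate 3 was the library nearest the empty vector line. Ifi27l2a, which is not on the list and not in its counts, was less graded, at 27.5, 34.4 and 13 CPM against 0.314, 0.437 and 0.634 CPM. Unlike the tested list members, Ifi27l2a was not highest in parental replicate 1. The Oas, Ifit and Gbp families hold close copies, and their single-gene values depend on how RSEM divided shared reads. The 4 tested members that were not called were Gbp5 (-1.76), Gbp2 (-0.97), Lgals3bp (-0.60) and Ifi204 (0.17). Ifi204 became the 1 member called higher without parental replicate 1.

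Of 24 receptor, JAK-STAT and IRF genes, 7 rose (29.2%) and 6 fell (25%), near the shares over all genes of 28.9% and 29%. The falls included Irf7, the factor that amplifies interferon production (59, 29 and 4.69 CPM against 0.978, 2.43 and 2.06 CPM), Stat2 (71.3, 47.9 and 19.8 against 9.33, 12.5 and 10.7 CPM) and Irf9 (-1.93). The receptor chain Ifnar1 rose by 0.22, a call it lost without parental replicate 1, and the kinases Jak1 and Tyk2 by 0.56 and 0.41.

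Of 23 genes of nucleic acid sensing, 7 rose (30.4%) and 8 fell (34.8%), near the same shares of all genes (28.9% and 29%). Sensors of RNA were among the falls. Ifih1, which encodes MDA5, stood at 38.7, 24.3 and 13.5 CPM against 4.52, 4.29 and 6.79 CPM, Dhx58 (LGP2) fell by 2.94 on the log2 scale and Ddx58 (RIG-I) by 1.36. The DNA sensor Cgas was not called (0.13), nor was its partner Tmem173 (STING; 0.10).

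Interferon transcripts themselves were scarce. Of 21 interferon genes, a list written after values were seen, none passed the filter on low counts. Ifnb1 (interferon beta) had 51, 29 and 3 reads in the parental libraries and 1, 0 and 0 with empty vector, and all 21 together had 61, 35 and 3 against 2, 3 and 0. The parental libraries thus had the same order for Ifnb1 reads as for the interferon-stimulated genes.

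The level of Oas2 was below 1 CPM in the other groups as well: 0.00644 CPM with ZBTB18 overexpression, 0.59 and 0.555 CPM in the receptor line with vehicle and with TGF-β1, 0.312 CPM in M11 and 0.0242 CPM in M12, all means of 3 libraries. The parental line was the high one.

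Promoters of the list were searched for the core of the interferon-stimulated response element, a promoter motif of interferon-induced genes, as GAAA, any 2 bases, and GAAA again, on either strand. The promoter sequences come from RefSeq (build GRCm38.p6) and run from 250 bases before the start site to 50 after it. Of 47 tested list members with an entry, 26 (55.3%) held a match, against 377 of 10276 tested genes (3.67%). The list was written as interferon-induced genes, so this share describes the list and not the falls. A match was held by 20 of 35 members (57.1%) called lower by a fold of at least 2, and by 2 of 3 not called lower. Among genes called lower by a fold of at least 2 that were not on the list, 48 of 720 (6.67%) held one, and among those called higher by that fold, 19 of 562 (3.38%). A match describes these letters only. The 4 sequences printed here belong to the list members with the largest falls whose window holds a match, a choice made after the falls and matches were known, and the capitals mark the match. Ifi44, Phf11d, Irf7 and Oasl2 fell further than the last of the 4 and hold no match in this window. Other members called lower by a fold of at least 2 had no entry, among them Oas2, Mx2, Usp18, Rtp4 and Zbp1.
Oas3 (chr5:120777610-120777909, minus strand): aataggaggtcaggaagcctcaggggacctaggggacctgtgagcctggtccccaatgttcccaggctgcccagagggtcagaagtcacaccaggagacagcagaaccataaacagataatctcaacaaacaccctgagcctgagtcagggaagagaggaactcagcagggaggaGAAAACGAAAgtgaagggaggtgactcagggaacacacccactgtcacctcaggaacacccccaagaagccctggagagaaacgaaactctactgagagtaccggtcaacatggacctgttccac
Oas1g (chr5:120887564-120887863, minus strand): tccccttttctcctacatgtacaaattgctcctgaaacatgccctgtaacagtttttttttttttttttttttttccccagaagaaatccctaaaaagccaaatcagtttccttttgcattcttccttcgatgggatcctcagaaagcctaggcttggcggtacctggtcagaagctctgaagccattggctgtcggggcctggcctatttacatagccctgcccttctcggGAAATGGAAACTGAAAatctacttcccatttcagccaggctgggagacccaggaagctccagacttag
Trim30a (chr7:104465144-104465443, minus strand, 1 of its 2 entries): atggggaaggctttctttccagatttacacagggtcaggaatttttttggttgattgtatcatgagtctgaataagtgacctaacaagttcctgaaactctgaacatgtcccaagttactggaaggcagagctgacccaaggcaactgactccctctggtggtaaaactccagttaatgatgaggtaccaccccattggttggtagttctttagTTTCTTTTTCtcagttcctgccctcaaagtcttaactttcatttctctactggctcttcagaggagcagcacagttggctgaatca
Ifit3b (chr19:34607707-34608006, plus strand): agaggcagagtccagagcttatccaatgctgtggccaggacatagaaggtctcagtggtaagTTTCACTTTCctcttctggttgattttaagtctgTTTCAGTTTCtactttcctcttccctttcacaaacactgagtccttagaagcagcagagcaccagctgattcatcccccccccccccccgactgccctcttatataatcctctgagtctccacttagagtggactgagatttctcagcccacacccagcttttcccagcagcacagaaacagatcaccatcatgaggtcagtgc
In Oas1g a pair of matches overlap, 18 and 12 bases before the start site, and in Trim30a and Ifit3b the matches read on the opposite strand, as TTTC on both sides of the spacer. Oas3, a further OAS synthase, fell by 4.58 and Trim30a, a restriction factor, went from 21.6, 13.2 and 6.50 to 0.84, 0.465 and 1.35 CPM.

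**Figure D3:**
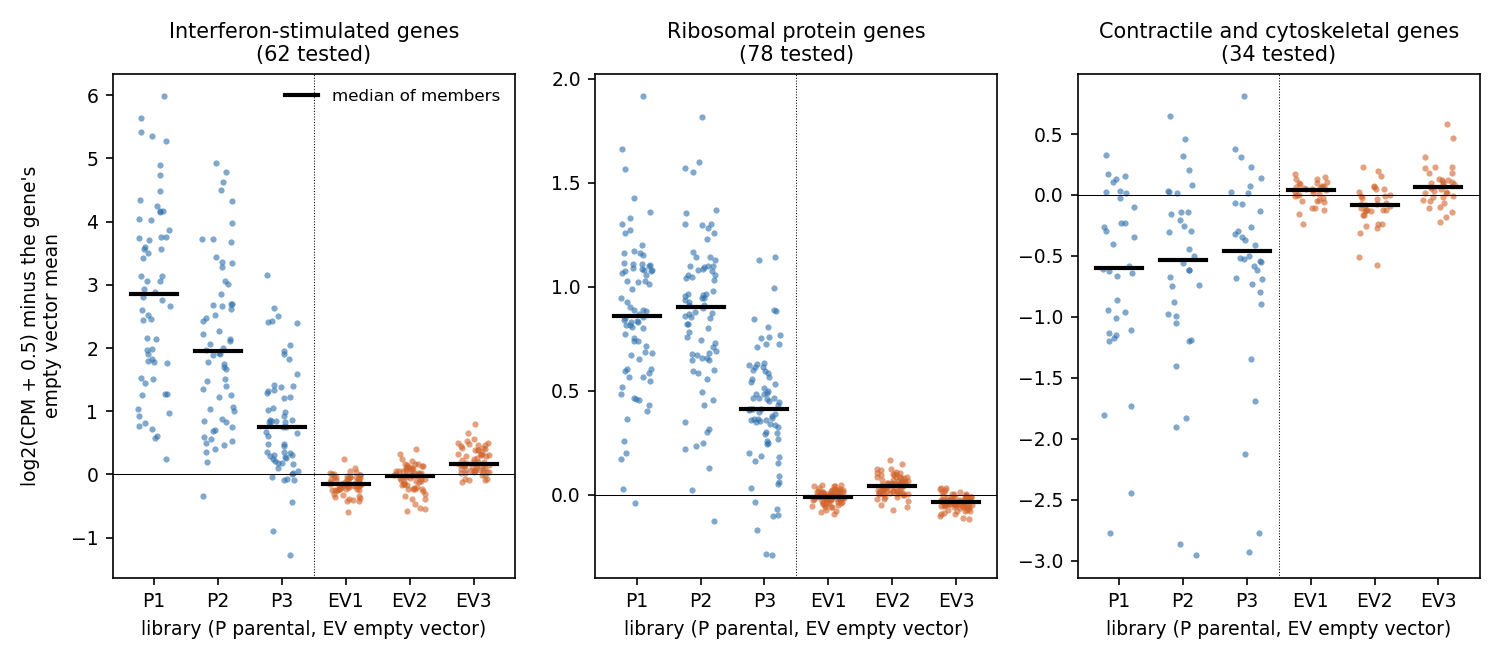
Members of 3 gene lists in each library, as log2(CPM + 0.5) minus the gene's mean over the empty vector libraries; P1 to P3 are the parental and EV1 to EV3 the empty vector libraries, dots are tested members and bars their medians. Interferon-stimulated genes differ among the parental libraries, ribosomal protein genes are nearer the empty vector level in P3 than in P1 and P2, and the median of contractile genes is lower in all 3 parental libraries.

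Most ribosomal protein genes fell as well. Of 78 tested, 71 were lower (91%, against 29% over all genes) and 0 higher (against 28.9%), with a median log2 fold change of -0.76, and 70 had no overlap between the lines. Their summed level was 121200, 120100 and 87170 CPM in the parental libraries and 66660, 68780 and 65340 CPM with empty vector, so parental replicate 3 again lay nearest the empty vector line. Rpl17, a protein of the large subunit, was at 1651, 1540 and 967 CPM against 434, 477 and 404 CPM (-1.66 ± 0.17, SE; edgeR adjusted p = 1.8e-07), and Rps24, of the small subunit, at 2318, 2225 and 1604 CPM against 730, 782 and 688 CPM. Without parental replicate 1, 67 were lower and 0 higher, against 3727 lower and 4203 higher over all genes. On log2(TPM + 1) 49 were lower and 6 higher, against 1868 lower and 6795 higher over all genes.

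Transcripts made in the mitochondrion were lower with empty vector. They took between 1.81% and 2.54% of counts in the parental libraries and between 0.848% and 1.06% with empty vector, for the protein-coding ones. The low share was not particular to the empty vector line. It was between 0.51% and 1.08% in the ZBTB18 overexpression and receptor libraries, and between 1.77% and 3.39% in the M11 and M12 libraries. Of 12 tested mitochondrially encoded genes 9 fell (75%, against 29% over all genes) and 0 rose. mt-Co1, a core subunit of cytochrome c oxidase, was at 13575, 13737 and 11526 CPM against 4015, 4647 and 3452 CPM, and mt-Nd4, of complex I, fell by 1.5. mt-Rnr1 and mt-Rnr2, the mitochondrial ribosomal RNAs, were called too, but most of their parental reads lay in replicate 1.

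Nuclear genes for the respiratory chain did not follow on every scale. Of 33 tested, 16 fell (48.5%, against 29% over all genes) and 5 rose (15.2%, against 28.9%), with small changes such as -0.94 for Ndufa4 and 0.75 for Sdha. On log2(TPM + 1) the lean turned to 14 higher and 5 lower, with a median equal to that of all genes. These genes are short, with a median exon length of 2178 bases against 3700 bases over all genes tested. With the correction for gene length described below, 13 were lower and 6 higher, with a median of -0.03.

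Sterol and fatty acid synthesis genes leaned lower, by a count that changed with single libraries. Of 38 tested, 17 fell (44.7%, against 29% over all genes) and 4 rose (10.5%, against 28.9%). Without parental replicate 1 only 8 fell and 5 rose, against 3727 lower and 4203 higher over all genes. Without another library up to 24 fell. On log2(TPM + 1) 8 fell and 9 rose, against 1868 lower and 6795 higher over all genes. The list median minus that of all genes was -0.21 on that scale. Msmo1, a sterol demethylase, was at 250, 241 and 98 CPM against 55.1, 56.8 and 45.2 CPM. Tm7sf2, a sterol reductase, was at 18.2, 18.9 and 6 CPM against 1.89, 2.38 and 1.85 CPM. Both kept their call without replicate 1, and in both parental replicate 3 was the low one. Fasn and Acaca, which make fatty acids, rose by 0.67 and 0.78.

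RNAs without a long polyA tail were highest by far in 1 library, and part of them also differed between the lines without that library. The kit used selects polyA RNA, yet parental replicate 1 held Rn7s1, the RNA of the signal recognition particle, at 2082 CPM against 9.37 and 3.38 CPM in the other parental libraries and 1.03, 2.21 and 1.35 CPM with empty vector. Of 9 such RNAs, a list written after values were seen, 9 were called lower, against 29% over all genes. Without replicate 1 there were 5 lower and 1 higher (Rmrp), against 3727 lower and 4203 higher over all genes. Gm42418 fell by 7.18 on the log2 scale in the main comparison and by 0.94 without that library. Rn7s1 fell by 8.91 and without that library fell by 2.09. At 4 of the 9 RNAs all parental libraries lay above all empty vector libraries. With the spread estimated from the 6 libraries alone, Gm42418, Rn7s1, mt-Rnr1 and mt-Rnr2 were not called (edgeR adjusted p = 0.106, 0.0938, 0.0726 and 0.107).

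Replication-dependent histone genes, whose messages end in a stem-loop and not in a polyA tail, followed the same library. Of 48 tested, 44 were lower (91.7%, against 29% over all genes) with a median of -2.85, and replicate 1 was the highest parental library at 48 of 48. Without it only 15 were lower and 2 higher, with a median of -0.70. Over all genes that fit gave 3727 lower and 4203 higher, with a median of 0.01. Hist1h1d, a linker histone, was at 28.3, 0.524 and 0.568 CPM against 0.364, 0.273 and 0.396 CPM and lost its call without replicate 1 (edgeR adjusted p = 0.0745). Hist1h2bc and Hist1h1c rose, by 1.33 and 1.18, in the main comparison and without replicate 1.

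Genes of the contractile apparatus and cytoskeleton leaned higher. Of 34 tested, 22 were higher (64.7%, against 28.9% over all genes) and 1 lower (Synpo2), with a median of 0.54. Tnnt2, cardiac troponin T, went from 0.17, 0.0912 and 0.17 CPM to 4.08, 2.57 and 6.34 CPM (4.92 ± 0.40, SE; edgeR adjusted p = 8.4e-09), and Actg2, smooth muscle gamma actin, from 0.595, 0.319 and 0.284 to 5.62, 3.69 and 7.77 CPM. Acta2, smooth muscle alpha actin, went from 41.1, 38.3 and 31.1 to 128, 126 and 161 CPM, and Tagln2, a transgelin, from 257, 239 and 278 to 902, 836 and 963 CPM. No library of 1 line overlapped the other at these 4 genes. Tagln, the smooth muscle transgelin, moved the other way without passing the test (-1.02). Without parental replicate 1, 21 were higher and 1 lower, against 4203 higher and 3727 lower over all genes.

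Collagens and other matrix genes leaned higher, with large exceptions. Of 32 tested, 18 rose (56.2%, against 28.9% over all genes) and 4 fell (12.5%, against 29%), with a median of 0.47. Col6a3, a chain of the microfibril collagen VI, went from 2.83, 2.46 and 1.70 CPM to 50.4, 37.3 and 43.2 CPM (4.22 ± 0.21, SE; edgeR adjusted p = 5.5e-11). Its partner chains Col6a1 and Col6a2 were not called (both 0.05). Col3a1, a fibrillar collagen, went from 37.2, 38.5 and 35.8 to 190, 143 and 182 CPM, and Vcan, the proteoglycan versican, from 38.6, 36.6 and 43.6 to 193, 134 and 193 CPM.

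Among the exceptions, Loxl2, a collagen cross-linking enzyme, fell from 45.5, 51.9 and 54.5 CPM to 6.11, 6.59 and 4.41 CPM. Col1a1, the main fibrillar collagen of bone and skin, fell by 1.66 and Thbs2, a matricellular protein, by 2.01. Loxl2 averaged between 78 and 145 CPM in the other 5 groups, so the empty vector line was the low one there.

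Of 24 tested proteases and inhibitors, 14 rose (58.3%, against 28.9% over all genes) and 3 fell (12.5%, against 29%). Mmp9, a gelatinase, went from 2.58, 1.66 and 2.10 CPM to 24, 17.2 and 25.6 CPM, whereas Mmp2, the other gelatinase, fell from 17.9, 19.2 and 20.3 to 8.44, 7.74 and 6.16 CPM. Of 15 integrin subunits, 8 rose (53.3%) and 2 fell (13.3%), with Itgb3, the beta chain of the vitronectin receptor, going from 15.1, 8.89 and 9.17 to 59.3, 41.5 and 60.3 CPM.

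Of 23 mesenchymal genes tested, 11 rose (47.8%, against 28.9% over all genes) and 0 fell (against 29%), and 12 were not called. The rises were led by the homeobox factor Prrx1 (16.7, 12.4 and 15.5 against 85.3, 58 and 86 CPM), with Zeb2 at 1.05, Msn (moesin) at 1.13 and Vim at 0.61. Of 22 epithelial genes, 9 rose (40.9%) and 4 fell (18.2%). Epcam, an adhesion protein of carcinomas, went from 0.17, 0.296 and 0.199 CPM to 3.42, 2.62 and 3.49 CPM, while Krt7 fell by 2.26.

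Genes of the TGF-β family leaned higher. Over all genes 28.9% were higher and 29% lower. Of 28 TGF-β response genes, 14 rose (50%) and 3 fell (10.7%), the rises including Skil, a feedback inhibitor of SMADs (29.3, 24.5 and 30 against 76.7, 64.9 and 81.5 CPM), and Tgfb1i1 (1.18). Of 32 pathway components, 17 rose (53.1%) and 4 fell (12.5%). Tgfbr2, the ligand-binding receptor, was at 13.2, 13.4 and 14.7 CPM against 27, 26.6 and 26.1 CPM (0.95 ± 0.09, SE; edgeR adjusted p = 3.6e-08), and Tgfbr1, its signalling partner, rose by 0.64. Ligand genes went both ways, with Tgfb1 up by 0.60 and Tgfb2 and Bmp7 down by 1.71 and 2.79. Zbtb18, the gene the study overexpresses elsewhere, was at 30.8, 29.7 and 28 CPM against 24.1, 25.6 and 25.7 CPM and was not called (-0.23; edgeR adjusted p = 0.0656). It was called lower with the gene length correction (-0.37, edgeR adjusted p = 0.0079), the filter of 1 CPM in 3 libraries (0.0354) and the 6 libraries alone (0.0333), and stood at 0.15 on log2(TPM + 1), not called.

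Division and repair genes leaned higher by small amounts. The shares over all genes were 28.9% higher and 29% lower. Of 49 cell cycle genes, 29 rose (59.2%) and 6 fell (12.2%) with a median of 0.31, the rises including Mcm3, a subunit of the replicative helicase (148, 160 and 206 against 311, 297 and 322 CPM), and Mki67 (0.82). Cenpa, the centromeric histone, fell by 1.05. Of 38 DNA repair genes, 24 rose (63.2%) and 5 fell (13.2%), with Atm, Brca1 and Parp1 up by 0.85, 0.85 and 0.71. Of 29 p53 targets and CDK inhibitors, 9 rose (31%) and 6 fell (20.7%), with Cdkn1a (p21) rising from 55.4, 38.2 and 42 to 110, 104 and 124 CPM and Cdkn1b (p27) falling by 1.08.

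Drug handling and stress pathways were mixed. Set against 28.9% higher and 29% lower over all genes, 5 of 20 drug efflux and xenobiotic genes rose (25%) and 6 fell (30%); Abcb1a, Abcb1b and Gstp1 were not called, and Abcg2 and Abcc1 rose by 0.74 and 0.59. Of 25 NRF2 antioxidant genes, 15 rose (60%) and 6 fell (24%), with Srxn1 up by 1.07 and Gpx4 down by 1.06. Of 29 genes of the unfolded protein and ATF4 response 7 rose (24.1%) and 3 fell (10.3%), and of 14 heat shock genes 3 rose (21.4%) and 2 fell (14.3%). Which drug, if any, was used was not recorded in the labels.

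Of 25 genes that silence or restrict retroviruses, 6 rose (24%, against 28.9% over all genes) and 5 fell (20%, against 29%). Trim30a and Bst2 (tetherin; 291, 288 and 153 against 77.6, 83.7 and 94.7 CPM) fell, and the silencing corepressor Trim28 and the maintenance methyltransferase Dnmt1 rose by 0.51 and 0.84. The antigen presentation list had 6 of 19 higher (31.6%) and 3 lower (15.8%).

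Signals and surface molecules varied gene by gene. Of 34 cytokines, chemokines and growth factors, 11 rose (32.4%, against 28.9% over all genes) and 5 fell (14.7%, against 29%). Cx3cl1 (fractalkine) went from 1.84, 1.98 and 3.21 CPM to 18.1, 15.1 and 19.9 CPM, Fgf21, a metabolic hormone, from 3.03, 1.94 and 0.994 to 0.0502, 0.109 and 0.0264 CPM, and Cxcl10, an interferon-induced chemokine, fell by 2.62 but was not called without parental replicate 1 (edgeR adjusted p = 0.111). Of 19 Notch genes, 9 rose (47.4%) and 1 fell (5.26%), led by the receptor Notch4 (1.30, 1.21 and 1.31 against 11.1, 6.70 and 14.4 CPM) and the ligand Jag2 (2.49).

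Clustered protocadherins, neuronal surface proteins chosen promoter by promoter from an array on chromosome 18, leaned higher on the count scale. Of 34 tested, 15 rose (44.1%, against 28.9% over all genes) and 2 fell (5.88%, against 29%), with a median of 0.93, although log2(TPM + 1) gave 7 higher and 1 lower and a median of 0.07, below that of all genes. Pcdhgc4 fell from 2.58, 3.17 and 3.64 CPM to 0.201, 0.082 and 0.185 CPM. These genes were low, and they share exons within the array, so single members are uncertain.

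Of 94 listed potassium channel genes and partners, 78 did not pass the filter on low counts. Of the 16 tested, 7 rose (43.8%, against 28.9% over all genes) and 4 fell (25%, against 29%). Apart from the chromosome 11 pair, the largest rise was Kcnk2 (1.84), a mechanosensitive leak channel, and the largest fall Kcnh3 (3.17, 3.08 and 2.5 against 0.59, 0.765 and 0.661 CPM).

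A germline gene was among the largest falls. Dppa2, a chromatin factor of early embryos and germ cells, was at 5.97, 4.79 and 5.34 CPM in the parental libraries and at 0.188, 0.082 and 0.159 CPM with empty vector (-5.10 ± 0.20, SE; edgeR adjusted p = 1.8e-13). It averaged between 3.19 and 16.5 CPM in the other 5 groups. Of 14 tested germline and pluripotency genes, 2 rose (14.3%, against 28.9% over all genes) and 7 fell (50%, against 29%).

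**Figure D4:**
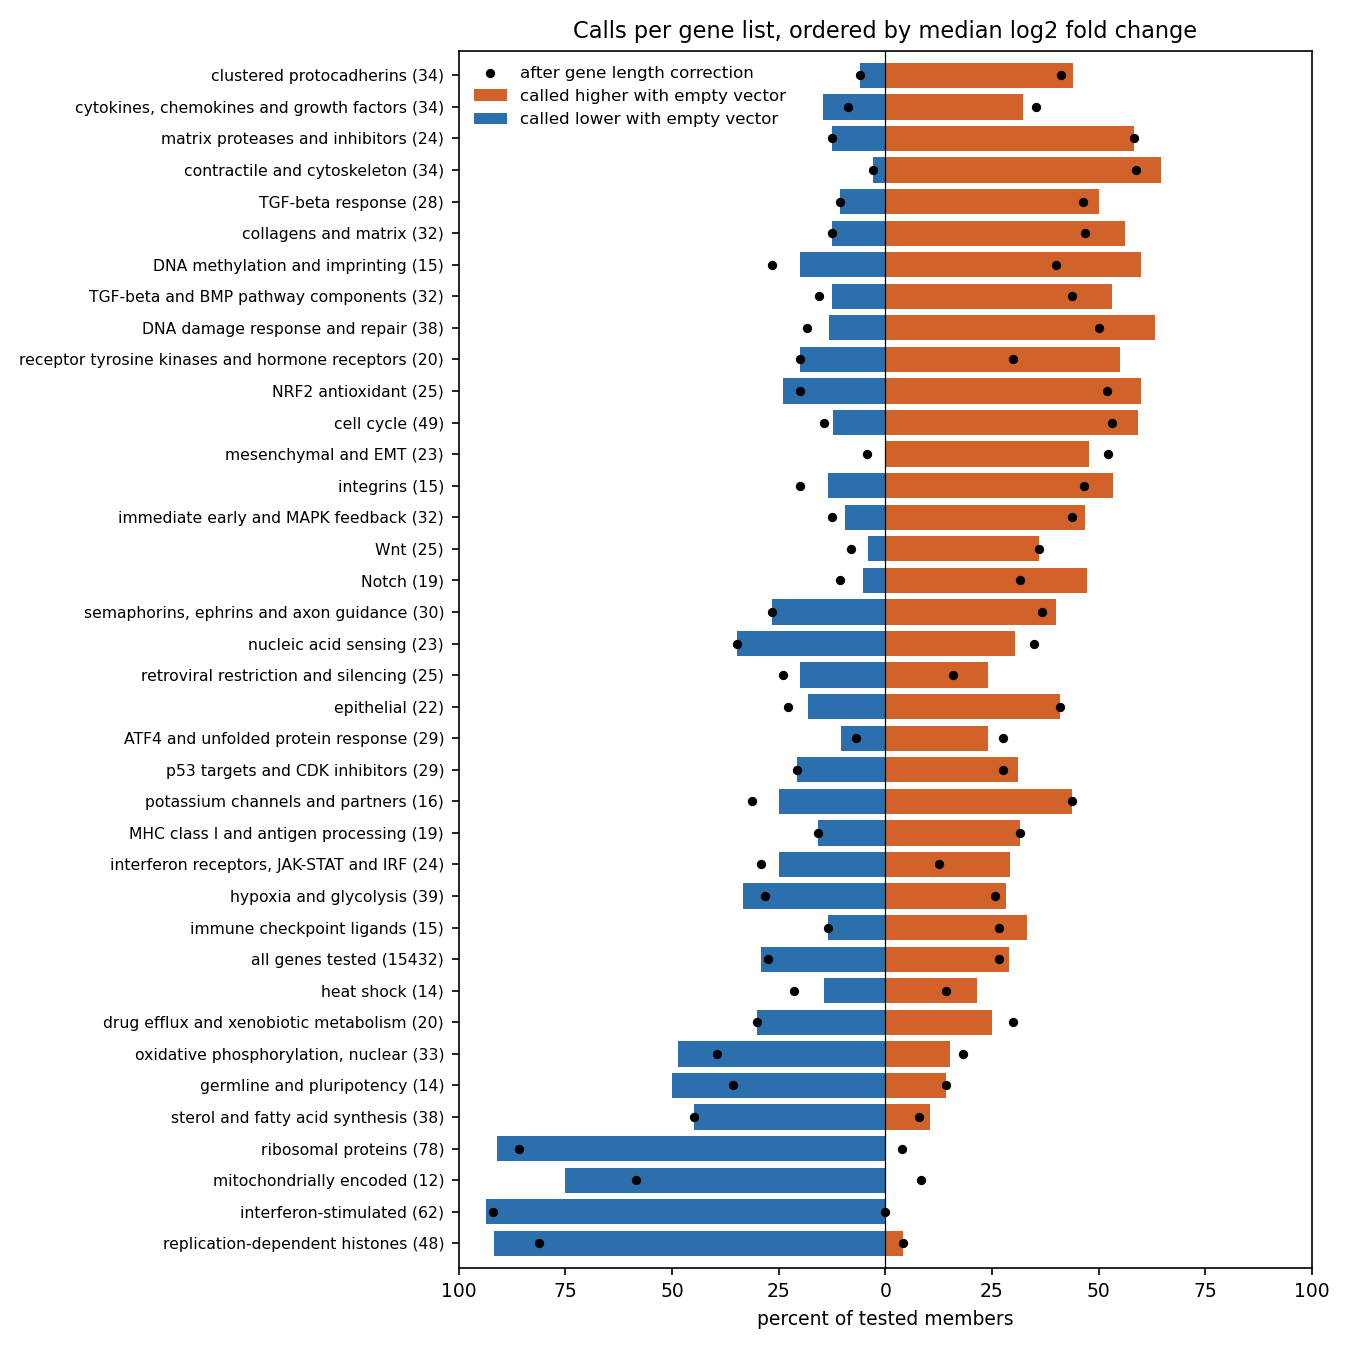
Percent of tested members called higher (right) or lower (left) with empty vector for each gene list and for all genes tested, ordered by median log2 fold change with the number tested in brackets; black dots give the shares after the gene length correction. Replication-dependent histones, interferon-stimulated, mitochondrially encoded and ribosomal protein genes lie at the bottom, and contractile, matrix and protease genes near the top.

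Fold changes followed gene length. Among protein-coding genes the median log2 fold change was -0.61 for the 306 genes with up to 1000 bases of exon and rose through each length class to 0.29 for the 2091 genes over 8000 bases, where 52.8% were called higher and 14% lower. Without parental replicate 1 the ends were -0.54 and 0.30. Measured in each library as the median deviation of genes up to 1500 bases minus that of genes over 8000 bases, the parental libraries stood at 0.49, 0.61 and 0.22 and the empty vector libraries at -0.19, -0.05 and -0.16. Parental replicate 3 was again the nearest to the empty vector line. The M11 and M12 libraries ran from -0.09 to 0.21, and the ZBTB18 overexpression and receptor libraries from -0.28 to -0.09. The latter thus lay near the empty vector libraries.

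A fit with a length curve for each library, added after the trend was seen, called 8393 genes, 4132 higher and 4261 lower, of which 7272 were also called without it. The main groups kept their lean there: 57 of 62 interferon-stimulated genes were lower and 0 higher, 67 of 78 ribosomal protein genes lower and 3 higher, and 20 of 34 contractile genes higher and 1 lower. The interferon receptor and JAK-STAT list turned from 7 higher and 6 lower to 3 and 7, the retroviral restriction list from 6 and 5 to 4 and 6, and the heat shock list from 3 and 2 to 2 and 3. Matrix genes gave 15 higher and 4 lower, and DNA repair genes 19 higher and 7 lower. Other leans shrank. Receptor kinases and hormone receptors went from 11 higher and 4 lower to 6 and 4. Methylation and imprinting genes went from 9 and 3 to 6 and 4, and Notch genes from 9 and 1 to 6 and 2. The part of library preparation in the length trend was not tested.

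**Figure D5:**
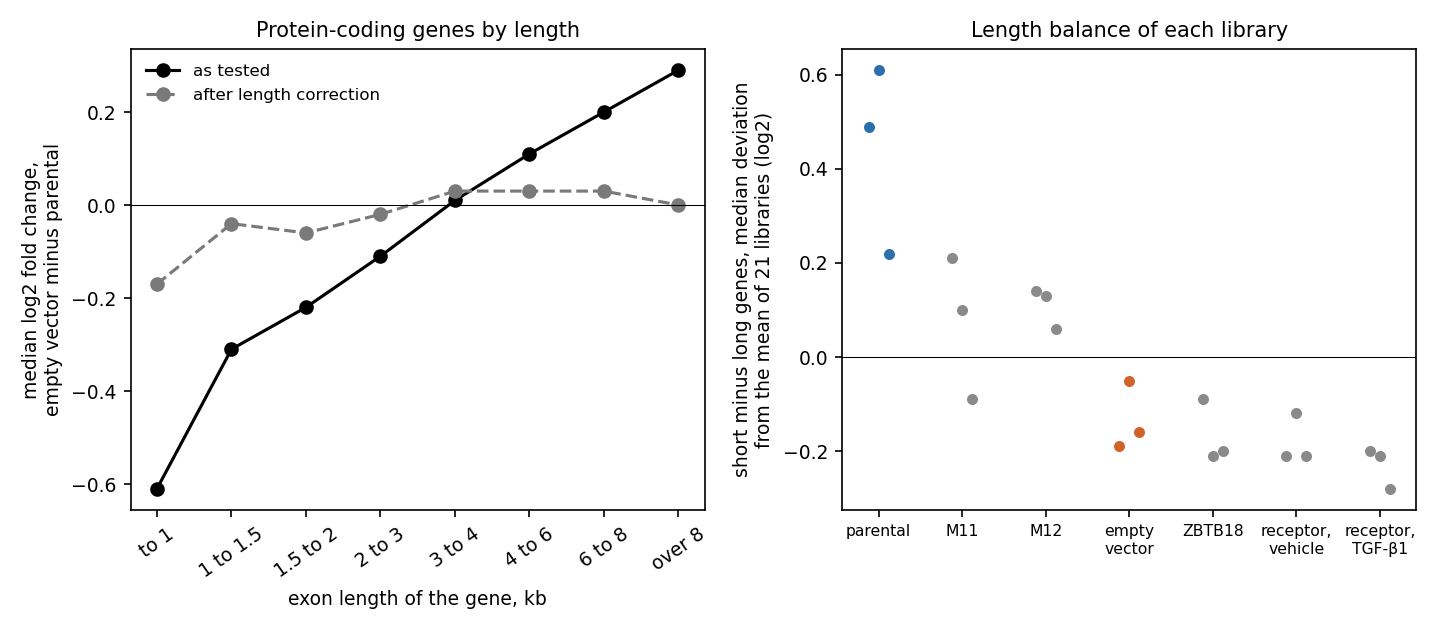
Left: median log2 fold change of protein-coding genes in classes of exon length (kb), as tested and after the length correction. Right: for each of the 21 libraries, the median deviation of short genes (up to 1500 bases) minus that of long genes (over 8000 bases) from the mean of all libraries, on the log2 scale; the 3 parental libraries lie at 0.22 to 0.61 and the empty vector libraries at -0.19 to -0.05.

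Direction also followed level and gene class. Of the 3336 genes under 1 CPM on average, 10.7% were called higher and 29.2% lower, and of the 4798 genes over 50 CPM, 44.7% and 22.4%. Of 12362 protein-coding genes 33.8% were higher and 25.8% lower, whereas of 1141 lncRNA genes 9.03% were higher and 36.5% lower, and of 1567 pseudogenes 10.7% and 44.8%. Pseudogene counts share reads with their parent genes. The shares by level and class include parental replicate 1, and they were not counted without it.

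Calls were uneven over the chromosomes. On chromosome 1, 375 of 922 tested genes (40.7%) were higher and 207 (22.5%) lower, with a median of 0.18, and on chromosome 19, 92 of 540 (17%) were higher and 209 (38.7%) lower, with a median of -0.19. Chromosomes 13 and 18 leaned higher (38.8% and 37.9%) and chromosome 5 lower (36.8% lower, 18.6% higher). After the length correction the medians of chromosomes 1 and 19 were 0.14 and -0.19, so the lean of both remained in that fit. Along chromosome 1 the highest median over 51 neighbouring tested genes, 0.589, ran from Srp9 to Lpgat1 (chr1:182124737-191784255), with 32 higher and 5 lower. The lowest window of all lay in the histone cluster of chromosome 13 (chr13:21501029-23764406, median -2.495), among the histone genes at which parental replicate 1 was highest. DNA copy number was not measured.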

How the data were processed

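RNA-seq counts of the 3 parental and 3 empty vector libraries were compared, with the other 15 libraries in the fit to share the estimate of spread. The authors deposited unnormalized RSEM expected counts for each gene. The deposited TPM are corrected for length and sum to the same total in every library. RSEM, STAR 2.7.1a, Trim Galore and GATK 4.1.2.0 are named with build mm10 per the submitters' processing notes; annotation release and strand setting are not given in the sources used here. Per the labels' protocols the libraries were polyA-enriched and stranded. Expected counts were rounded (1.28% were not whole), 92 spike-in entries with 0 reads were left out, and 99.8% of 55573 gene IDs matched GENCODE vM21 when the version was ignored. The deposited FPKM were not used.

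The fit used edgeR 4.0.16 under R 4.3.3, with TMM scaling, its filter on low counts by group, and a two-sided quasi-likelihood test with 1 mean per group over 21 libraries (14 residual degrees of freedom), Benjamini-Hochberg adjusted over 15432 genes, threshold 0.05. Fold changes are empty vector minus parental; the SE is the absolute log2 fold change divided by the square root of F. With 0 reads in a group the fold is a bound against 3 counts over the group; with 1 to 3 reads the ratio has an exact 95% conditional binomial interval. No pair of replicates agreed within sampling noise, and the script was tested on simulated counts.

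The comparison and the 37 gene lists were chosen with earlier results of these data known, and 2 lists were added after values were seen. Genes named are Kcnmb1, Kcnip1, Oas2, Zbtb18, Tgfbr2 and Tgfbr1; the 15 highest and 15 lowest called genes with a fold of at least 2, at least 5 CPM on average in the higher line, no overlap and an official name; genes with 0 to 3 reads in 1 line and at least 5 CPM in the other; and up to 4 called members of each list with at least 1 CPM. Other names were picked after their values were seen. Alternatives were DESeq2 1.42.0 (test or size factors), limma-voom (limma 3.58.1), other filters, the 6 libraries alone, limma on log2 TPM with pseudocounts of 1 and 0.1, the replicate number as a block, library totals without Gm42418, each library left out, an adjusted p of 0.01, and, added later, a gene length curve and replicates 2 and 3 alone. Some items are not reported here.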

Additional observations from a re-analysis of the deposited data

How the results depend on the processing

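The count of called genes, 8944, ranged from 6846 (adjusted p under 0.01) to 9165 (replicate block) over the alternatives that kept all 6 libraries, and leaving out 1 library gave 7440 (without parental replicate 2) to 9378 (without parental replicate 3). Over these leave-one-out fits, 3615 to 4650 genes were higher and 3727 to 4728 lower; with a fold of at least 2 there were 2249 to 2904 in all, 659 to 936 higher and 1453 to 1968 lower. The replicate block used the shared replicate numbers as a term. Same-numbered deviations from the group mean correlated at -0.009, 0.209 and 0.052, and differently numbered ones at -0.19 to 0.125. With 3 libraries a group these values cannot decide whether the numbers pair the samples. The block gave 4608 higher and 4557 lower. The TPM scale changed the balance: 6795 higher and 1868 lower with log2(TPM + 1), 6867 and 1971 with log2(TPM + 0.1). With a fold of at least 2, log2(TPM + 1) gave 1090 calls in all and 263 lower, log2(TPM + 0.1) gave 1462 higher and 728 lower, and the filter of 1 CPM in 3 libraries left fewer low genes and 1130 lower. The cause of the TPM shift was not tested. Replicates 2 and 3 of both lines alone, 4 libraries, gave 6682 calls. No called gene among those chosen by the naming rule changed direction under any alternative run. Calls lost among them numbered 16 with log2(TPM + 1), 12 with log2(TPM + 0.1), 11 with replicates 2 and 3, 9 with the 6 libraries alone, 7 with limma-voom, 5 without parental replicate 1 (Hist1h1d, Cxcl10, Hist1h4f, Hist2h4 and Rpph1), 3 with the length correction (Slc7a11, Dnaja1 and Pdgfra), 2 at an adjusted p of 0.01, and at most 1 under each of the others. Low depth limits genes under 1 CPM, where single reads move the values.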

Other observations

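Odam and Tmem100, outside the lists and below 5 CPM in both lines, had few parental reads and were picked after their values were seen. Odam, a secreted odontogenic and epithelial protein, had 0 parental reads and 241 with empty vector (1.58, 1.97 and 1.14 CPM), at least 59.6-fold higher. Tmem100, a membrane protein of endothelium and sensory neurons, had 1 and 200 reads (ratio 148, 95% interval 26.3 to 5891).

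The lists here stand against 28.9% higher and 29% lower over all genes. Of 30 tested semaphorins, ephrins and related genes, 12 rose (40%) and 8 fell (26.7%). Sema6d, a transmembrane semaphorin, went from 1.44, 1.46 and 2.04 CPM to 16.8, 15.7 and 13.8 CPM, whereas Plxnb1, a semaphorin receptor, fell from 1.42, 1.25 and 0.909 to 0.263, 0.219 and 0.502 CPM. Receptor kinases and hormone receptors gave 11 higher (55%) and 4 lower (20%) of 20, with Flt1, a VEGF receptor, up by 2.13 and Mst1r down by 1.33. Of 39 hypoxia and glycolysis genes 11 rose (28.2%) and 13 fell (33.3%): Hk1 rose by 0.86 while Ankrd37, Bnip3 and Eno2 fell by 1.48, 1.08 and 1.16. Immediate early and MAPK feedback genes had 15 of 32 higher (46.9%) and 3 lower (9.38%), with Egr3, Jun and Junb up by 1.39, 0.91 and 0.91. Methylation and imprinting genes gave 9 higher (60%) and 3 lower (20%) of 15, with Cdkn1c, an imprinted CDK inhibitor, down by 1.39. Of 25 Wnt pathway genes 9 rose (36%) and 1 fell (4%), and of 15 immune checkpoint ligands 5 rose (33.3%) and 2 fell (13.3%).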
